A study of Mus musculus with 10 samples.

Results

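The transcripts described here are 36 genes of endothelial identity and angiogenesis, measured in the posterior wall of the left ventricle of MC4R-/- and WT mice. They were taken as the rows of the gene table whose RefSeq accessions belong to a fixed list of symbols, and all 36 had a row among the 24160 rows of the table. The list was divided by role into 14 genes of pan-endothelial identity, 5 arterial and Notch genes, 6 genes of capillaries and their exchange surface, 5 angiogenic ligands and 6 angiogenic receptors. There were 6 MC4R-/- libraries, from mice without the melanocortin 4 receptor, and 4 WT libraries, and the series concerns a dilated cardiomyopathy that follows loss of this receptor. Mice of both genotypes were of strain C57BL6/J, came from heterozygous parents, and were kept at 24 °C until 30 weeks of age, and no other treatment is given in the labels. Per the labels' protocols, poly(A) RNA of the whole wall was sequenced from 200 ng of total RNA, so cardiomyocytes, fibroblasts, mural cells and blood cells were in the same libraries. How the Mc4r allele was made, and whether each library is a separate animal, are not stated in the labels, and p-values therefore measure how far these samples spread.

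Endothelial cells line every vessel of the heart, where most of them belong to capillaries that run beside the cardiomyocytes. Transcription factors of the ETS and SoxF families keep their identity, Notch signalling between neighbouring cells sets apart arterial cells, and capillary cells carry the channels, caveolae and surface proteins of exchange between blood and muscle. New vessels are driven by vascular endothelial growth factor, angiopoietins and apelin, each a ligand from muscle, mural or endothelial cells that acts on receptors of the endothelium. In the failing heart the balance between muscle growth and capillary supply has long been of interest, which is the setting in which these genes were compared between genotypes.

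Promoter sequence was available from RefSeq (GRCm38.p6) for 23 of the 36 genes, as 30 windows that reach from 250 bases before a transcript start to 50 bases after it. Of these windows 15 (50%), in 14 of the 23 genes, held the ETS core letters AGGAAG on either strand, against 35.4% of all 32851 windows of the same length. One stretch of 150 bases per role is shown, that of the gene most abundant per length with an entry, because these are the starts of the transcripts whose levels follow. They are the 150 bases before a start of Eng (chr2:32646445-32646594, plus strand), Dll4 (chr2:119325634-119325783, plus strand), Ly6c1 (chr15:75048838-75048987, minus strand), Vegfb (chr19:6987652-6987801, minus strand) and Nrp1 (chr8:128358923-128359072, plus strand). Each is written 5′ to 3′ on the strand of its gene, and capitals mark AGGAAG or its reverse complement CTTCCT. For Ly6c1 and Nrp1 another annotated transcript begins further upstream, so the stretch overlaps that transcript.
Eng: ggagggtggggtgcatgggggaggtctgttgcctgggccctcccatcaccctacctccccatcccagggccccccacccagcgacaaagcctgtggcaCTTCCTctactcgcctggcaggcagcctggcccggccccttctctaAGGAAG
Dll4: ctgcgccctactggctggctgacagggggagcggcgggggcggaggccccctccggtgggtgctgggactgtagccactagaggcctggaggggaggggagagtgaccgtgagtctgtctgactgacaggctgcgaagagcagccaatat
Ly6c1: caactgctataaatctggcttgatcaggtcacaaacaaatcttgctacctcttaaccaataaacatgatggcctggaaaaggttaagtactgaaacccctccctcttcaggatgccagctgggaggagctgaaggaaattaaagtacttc
Vegfb: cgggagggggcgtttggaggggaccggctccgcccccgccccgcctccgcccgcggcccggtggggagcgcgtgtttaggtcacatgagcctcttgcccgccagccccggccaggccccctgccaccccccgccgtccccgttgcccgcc
Nrp1: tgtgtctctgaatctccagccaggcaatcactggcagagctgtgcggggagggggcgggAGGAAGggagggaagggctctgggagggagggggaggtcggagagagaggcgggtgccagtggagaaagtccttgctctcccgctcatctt

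The stretch before Eng held the ETS letters in 2 places, that before Nrp1 in 1, and those before Dll4, Ly6c1 and Vegfb in none. The whole window of Ly6c1 had a match, outside the 150 bases printed. The median GC content was 61.3% over the windows of the 23 genes and 52.7% over all windows. The letters ACGTG, the core bound by hypoxia-inducible factors, were in 2 of the 30 windows (6.67%, of Cav1 and Vegfa), against 19.6% of all windows. TGGGAA, the letters bound by the Notch partner Rbpj, were in 8 windows (26.7%, against 25.6% of all), the letters AGATAA bound by Gata factors in 3 (10%, against 11.2%), AACAAT of Sox factors in 3 (10%, against 10.7%) and TATAAA in 5 (16.7%, against 13.6%). These letters were searched on both strands, no motif contains another, and a match is a description of the sequence only. The 14 genes with ETS letters had log2 fold changes with a median of -0.02, and for the 9 with none the median was 0.03.

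The libraries held 4145033 to 6425785 reads on genes, and the 36 genes had between 27 and 3269 reads each in every library. Mc4r itself had 4 reads over the 6 MC4R-/- libraries and 2 reads over the 4 WT libraries, so it checks no label at this depth. WT replicate 2 stood apart by its lymphocyte transcripts. The summed level of the 9 lymphocyte markers with a row was 14.2 to 28.4 normalized counts in the 6 MC4R-/- libraries, against 726 in WT replicate 2 and 16.6 to 33.7 in the other WT libraries. MC4R-/- replicate 5 stood apart by atrial transcripts, with a summed level of 6 atrial markers of 3254, against 593 to 1000 in the other MC4R-/- libraries and 556 to 1388 in the WT libraries. In the other libraries the larger part of this sum was Nppa. The atrial marker Myl7 was 720 in MC4R-/- replicate 5, 134 in MC4R-/- replicate 6, 63.0 in MC4R-/- replicate 2 and 48.1 in WT replicate 1. It was at most 8.71 in the remaining libraries, so atrial transcripts were not confined to MC4R-/- replicate 5. The median of each class is also given without WT replicate 2 and MC4R-/- replicate 5.

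None of the 36 genes differed between the genotypes past the threshold. Levels are normalized counts, that is reads per gene divided by a size factor of the library, and each fold change is a difference of log2(normalized count + 1), MC4R-/- over WT, with a threshold of 0.05 on p-values adjusted by Benjamini-Hochberg over all genes tested (limma). Of 14611 genes tested, 67 passed (0.459%), 42 of them higher (0.287%) and 25 lower (0.171%) in MC4R-/-, and 0 of the 36 were among them. The count over all genes ran from 26 to 117 as single libraries were left out, and that over the 36 remained 0. Adjusted p-values of the 36 ran from 0.542 to 0.996 (limma). At an unadjusted p below 0.05 the count was also 0 of 36, where 9.6% of all tested genes lay, and edgeR and DESeq2 on the recovered reads likewise called 0, adjusted or unadjusted. The values of the 6 MC4R-/- and the 4 WT libraries overlapped for each of the 36, while 2.28% of all tested genes had groups that did not overlap.

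The 36 genes varied little between libraries. The coefficient of variation over the 10 libraries was 10.5% in the median of the 36 genes, against 14.9% over all tested genes, from 5.16% for Pecam1 to 28.4% for Cldn5. It was below 10% for 13 of them and above 20% for 3, Cldn5, Rgcc and Angpt1. All tested genes include those with a mean as low as 1 normalized count, while the 36 had at least 27 reads in every library. The medians were not matched for abundance, so the lower spread is not shown to be particular to these genes. The 95% interval of the fold change lay within 1.5-fold in either direction for 35 of the 36 and within 2-fold for all 36. The exception at 1.5-fold was the tight junction gene Cldn5, whose interval on the log2 scale reached from -0.51 to 0.66. A difference smaller than these intervals was not detectable with these libraries, and a p that misses the threshold does not show that the levels were equal.

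The point estimates lay on both sides of 0, with 16 above and 20 below. Their median log2 fold change was -0.01, the same as the -0.01 of all tested genes, and they reached from -0.26 (Angpt1) to 0.20 (Efnb2). The summed level of the 36 genes was 23279 ± 470 normalized counts in MC4R-/- (SD, n = 6) and 23193 ± 820 in WT (SD, n = 4), a ratio of 1.004. As a share of all normalized counts this was 0.391 to 0.429% in MC4R-/- libraries and 0.392 to 0.431% in WT libraries. In bulk RNA of a wall, a change in the number of endothelial cells and a change in RNA per cell cannot be told apart, and the sums give neither.

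**Figure D1:**
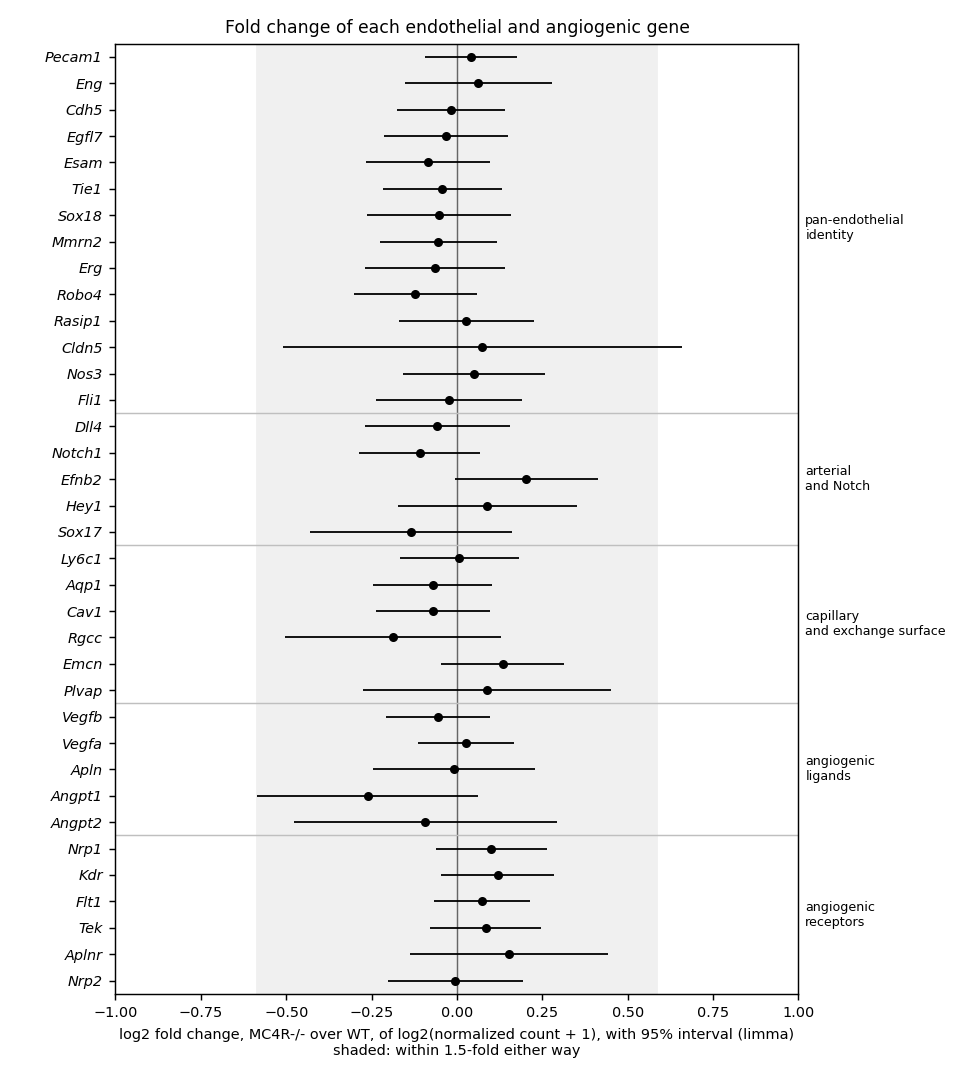
Points show the log2 fold change of each of the 36 genes, MC4R-/- (n = 6) over WT (n = 4), on the log2(normalized count + 1) scale, and bars show the 95% interval from limma. Genes are grouped by role and ordered by abundance per length, and every interval crosses 0; the interval of Cldn5 alone leaves the shaded band of 1.5-fold.

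Of the genes of pan-endothelial identity, 5 of 14 had point estimates above 0 and 9 below, with 0 called and a median log2 fold change of -0.03 (0.01 without WT replicate 2 and MC4R-/- replicate 5). Pecam1, a platelet endothelial adhesion molecule at the junctions between endothelial cells, was the most abundant of them per length. Its normalized count was 1188, 1325 and 1358 (lowest, median, highest) in MC4R-/-, and 1194, 1242, 1264 and 1302 in WT. The WT values lay inside the range of MC4R-/-, of which 4 libraries were above every WT library, 1 was below every WT library and 1 was near the lowest. This gave a log2 fold change of 0.04 ± 0.07 (SE; limma, adjusted p = 0.892).

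Robo4, an endothelial receptor of the roundabout family that stabilizes vessels, had the smallest p of these 14. Its normalized count was 260.5, 315 and 353.5 (lowest, median, highest) in MC4R-/-, and 331, 346, 327 and 340 in WT. The 4 WT libraries were close together, and the MC4R-/- libraries spread to both sides of them, with 4 of 6 lower than every WT library. Between the groups the log2 fold change was -0.12 ± 0.09 (SE; limma, adjusted p = 0.711). Its interval, from -0.30 to 0.06, crossed 0.

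The other genes of this class had point estimates close to 0. The vascular endothelial cadherin gene Cdh5 had 1467 ± 149 normalized counts in MC4R-/- (SD, n = 6) and 1482 ± 114 in WT (SD, n = 4). Eng, a co-receptor for BMP ligands, had 1253 ± 183 in MC4R-/- and 1196 ± 146 in WT, and the orphan receptor kinase Tie1, a partner of Tek, had 723 ± 87.3 in MC4R-/- and 741 ± 51 in WT. Of the identity factors of the ETS family, Erg had a log2 fold change of -0.07 ± 0.10 (SE) and Fli1 of -0.02 ± 0.10 (0.02 without WT replicate 2 and MC4R-/- replicate 5). Sox18, of the SoxF family, had -0.05 ± 0.10 and Nos3, the endothelial nitric oxide synthase, 0.05 ± 0.10. The junction gene Esam was at -0.09 ± 0.09 (0.02 without the same 2 libraries), the matrix glycoprotein gene Mmrn2 at -0.05 ± 0.08, Rasip1, needed for lumen formation, at 0.03 ± 0.10, and Egfl7, a secreted matrix protein of endothelium, at -0.03 ± 0.09. Exons of Egfl7 overlap those of Gm20532 on the same strand, so its reads could have been split in the counting. Cldn5, the claudin of endothelial tight junctions, was the least even of all 36, with 50.8 to 131.5 normalized counts in MC4R-/- libraries and 109, 89.4, 60.9 and 93.3 in WT libraries. Both groups held high and low libraries of Cldn5, and its log2 fold change was 0.07 ± 0.26.

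**Figure D2:**
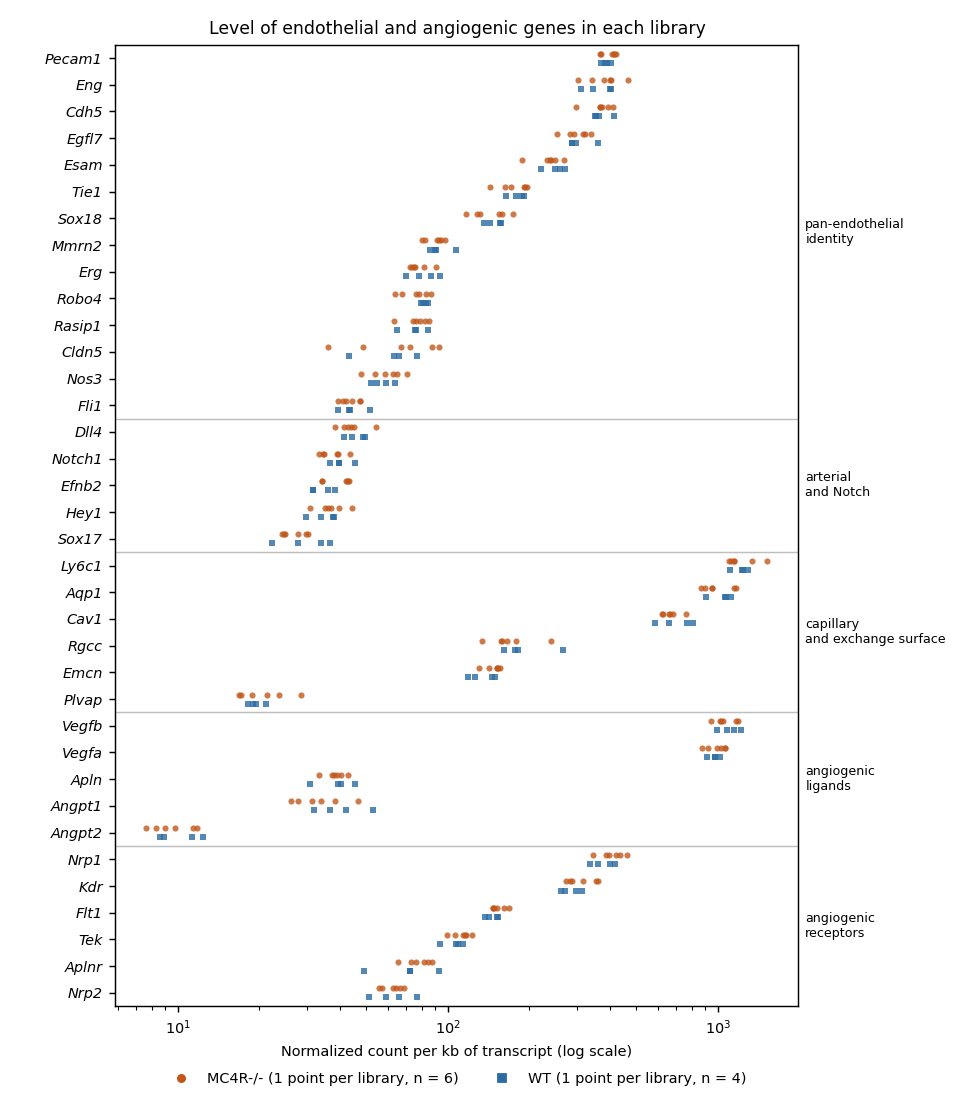
Each point is the normalized count of 1 library per kb of transcript, on a log scale, with MC4R-/- libraries (n = 6) as circles above WT libraries (n = 4) as squares, for the 36 genes grouped by role. The genes span 9.92 to 1226 normalized counts per kb over all libraries, and circles and squares overlap for each gene.

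Per kb of transcript, the scale on which genes can be set against each other, the 36 genes spanned a ratio of 124. The most abundant were Ly6c1, Vegfb, Aqp1, Vegfa and Cav1. Ly6c1 had 1231 ± 168 normalized counts per kb in MC4R-/- and 1218 ± 76.8 in WT, and Vegfb had 1067 ± 92.7 per kb in MC4R-/- and 1108 ± 96.5 in WT. The least abundant was Angpt2, with 9.65 ± 1.67 per kb in MC4R-/- and 10.3 ± 1.85 in WT. The arterial and Notch genes were low throughout, each between 27.1 and 44.2 per kb on average in MC4R-/- and between 30.2 and 45.9 in WT.

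Among the arterial and Notch genes, 2 of 5 point estimates were above 0 and 3 below, with 0 called and a median log2 fold change of -0.06 (-0.01 without WT replicate 2 and MC4R-/- replicate 5). Efnb2 (chromosome 8, 8617235 to 8661242, GRCm38), which encodes the ligand ephrin B2 that marks arterial endothelium, had the smallest p of all 36 genes. Its normalized count was 164, 203 and 206 (lowest, median, highest) in MC4R-/-, and 173, 152, 152 and 183 in WT. The MC4R-/- libraries formed 2 sets, with replicates 1, 3, 5 and 6 above every WT library and replicates 2 and 4 inside the WT range. The log2 fold change was 0.20 ± 0.10 (SE; limma, adjusted p = 0.542), with an interval from -0.01 to 0.41. Without WT replicate 2 it was 0.16, and without WT replicate 4 it was 0.25, and the adjusted p stayed between 0.419 and 0.717 whichever library was left out (limma).

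The Notch ligand and receptor had point estimates below 0. Notch1, the receptor, had 317, 350 and 412 normalized counts (lowest, median, highest) in MC4R-/-, and 375, 431, 349 and 374 in WT. MC4R-/- replicates 2, 4 and 6 were below every WT library for Notch1, and the other MC4R-/- libraries lay among the WT values. Its log2 fold change was -0.11 ± 0.09 (SE; limma, adjusted p = 0.744). Dll4, the ligand of arterial and tip cells and the most abundant of this class per length, had 144, 162 and 203 normalized counts in MC4R-/-, and 185, 182, 155 and 166 in WT. The highest and the lowest library for Dll4 were both MC4R-/-, and the log2 fold change was -0.06 ± 0.10.

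The Notch target gene Hey1, a transcriptional repressor, had 89.9 ± 10.9 normalized counts in MC4R-/- (SD, n = 6) and 84.3 ± 9.22 in WT (SD, n = 4), a log2 fold change of 0.09 ± 0.13 (SE). Sox17, the arterial factor of the SoxF family, had 71 ± 7.12 in MC4R-/- and 79 ± 16.5 in WT, a log2 fold change of -0.13 ± 0.14. WT replicate 2 was the highest of all libraries for Sox17 and Notch1 and the lowest for Efnb2, so the WT group spread in both directions within this class. Exons of Dll4 and of Notch1 overlap genes on the opposite strand, Gm14207 for Dll4 and 0610009E02Rik and Gm13568 for Notch1. The strand setting of the counting is not stated in the labels, so reads of these partners cannot be told apart from theirs. The same holds for Eng (Fpgs), Nos3 (Atg9b and Gm15587), Rasip1 (A030001D20Rik and Gm45437) and Angpt1 (Gm17473).

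In a wider list of 16 Notch and arterial genes, 8 point estimates were above 0 and 8 below, the median log2 fold change was -0.03, and 0 were called (0 at an unadjusted p below 0.05; limma). The smallest p belonged to Hey2, a Notch target and partner of Hey1, with 27.9 ± 5.3 normalized counts in MC4R-/- (SD, n = 6) and 36.5 ± 7.29 in WT (SD, n = 4), a log2 fold change of -0.38 ± 0.20 (SE; limma, adjusted p = 0.581). Unc5b, a netrin receptor of arterial and tip cells, came next at 0.20 ± 0.11 (SE; limma, adjusted p = 0.621).

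The capillary genes had 3 point estimates above 0 and 3 below, with 0 called and a median log2 fold change of -0.03 (0.01 without WT replicate 2 and MC4R-/- replicate 5). Ly6c1, which encodes a glycolipid-anchored surface protein of capillary endothelium and of some blood cells, had 783, 818 and 1085 normalized counts (lowest, median, highest) in MC4R-/-, and 789, 876, 879 and 918 in WT. MC4R-/- replicates 4 and 6 were above every WT library for Ly6c1, and the other MC4R-/- libraries lay below the WT median. Its log2 fold change was 0.01 ± 0.08 (SE; limma, adjusted p = 0.991). Its near-identical neighbour Ly6c2 had 0.871 to 2.94 normalized counts in MC4R-/- and 0 to 5.77 in WT, and reads could have been split between the pair in the counting, so the level of Ly6c1 is uncertain to that extent.

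Rgcc, a cell cycle regulator abundant in capillary endothelium of mouse heart, had 123, 149 and 222 normalized counts (lowest, median, highest) in MC4R-/-, and 164, 246, 168 and 149 in WT. Each group had 1 high library, MC4R-/- replicate 6 and WT replicate 2, and the others overlapped. This gave a log2 fold change of -0.19 ± 0.15 (SE; limma, adjusted p = 0.753), and it ran from -0.29 to -0.03 as single libraries were left out. Without WT replicate 2 and MC4R-/- replicate 5 together it was -0.01.

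Emcn, a sialomucin of capillary and venous endothelium, had the smallest p of the capillary genes. It had 258, 301 and 307 normalized counts (lowest, median, highest) in MC4R-/-, and 289, 235, 249.2 and 294 in WT. The 4 highest of the 10 libraries for Emcn were MC4R-/- and the 2 lowest were WT, with the others mixed. Between the groups the log2 fold change was 0.13 ± 0.09 (SE; limma, adjusted p = 0.677).

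Aqp1, the water channel of capillaries, had 2619 ± 340 normalized counts in MC4R-/- (SD, n = 6) and 2742 ± 247 in WT (SD, n = 4), and Cav1, the coat protein of caveolae, had 1764 ± 134 in MC4R-/- and 1863 ± 272 in WT. Each had a log2 fold change of -0.07 ± 0.08 (SE). Without WT replicate 2 and MC4R-/- replicate 5 it was -0.02 for Aqp1 and -0.19 for Cav1 (limma, adjusted p = 0.965 and 0.253). Plvap, which forms the diaphragms of fenestrae and caveolae and is scarce in continuous capillaries, was the lowest of this class, at 41.9 ± 8.95 normalized counts in MC4R-/- and 38.8 ± 2.62 in WT, a log2 fold change of 0.09 ± 0.18. In a wider list of 8 genes of capillaries and their uptake of lipid, such as Cd36 and Gpihbp1, 5 point estimates were above 0 and 3 below, with a median log2 fold change of 0.04, and 0 were called (0 at an unadjusted p below 0.05; limma). The surface protein gene Cd300lg had a log2 fold change of 0.15 ± 0.08 (SE; limma, adjusted p = 0.553). The protease inhibitor gene Timp4 had -0.50 ± 0.26 (SE; limma, adjusted p = 0.615).

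Of the 5 angiogenic ligands, 1 point estimate was above 0 and 4 below, with 0 called and a median log2 fold change of -0.06 (-0.11 without WT replicate 2 and MC4R-/- replicate 5). As single libraries were left out, the median ran from -0.11 to 0.00094, the last without WT replicate 1. Vegfa, the main growth factor of vessels and made largely by cardiomyocytes in the heart, was even across libraries, with 2111 ± 170 normalized counts in MC4R-/- (SD, n = 6) and 2069 ± 95.4 in WT (SD, n = 4), a log2 fold change of 0.03 ± 0.07 (SE). Vegfb, its relative that binds Flt1 and not Kdr, was the most abundant ligand per length, with 1156, 1267 and 1444 normalized counts (lowest, median, highest) in MC4R-/-, and 1402, 1481, 1207 and 1314 in WT. The groups overlapped over most of their range, and the log2 fold change of Vegfb was -0.06 ± 0.07 (SE; limma, adjusted p = 0.87).

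Angpt1 (chromosome 15, 42424667 to 42676977, GRCm38), the ligand that activates Tek and comes mainly from mural and other perivascular cells, had the largest fold change of the 36 in either direction. Its normalized count was 112, 139 and 198.5 (lowest, median, highest) in MC4R-/-, and 136, 179, 224 and 157 in WT. WT replicate 3 was the highest of all and the 3 lowest libraries were MC4R-/-, but MC4R-/- replicates 1, 5 and 6 lay within the WT range. The log2 fold change was -0.26 ± 0.15 (SE; limma, adjusted p = 0.642), with an interval from -0.58 to 0.06. It ran from -0.37 to -0.13 as single libraries were left out, and without WT replicate 2 and MC4R-/- replicate 5 together it was -0.33 (limma, adjusted p = 0.373). Of 10 mural markers, 8 had point estimates below 0, 0 were called and 2 were at an unadjusted p below 0.05 (limma). The share of all tested genes at that p was 9.6%. The summed level of the 10 was 20396 to 22207 normalized counts in MC4R-/- and 21526 to 23651 in WT. Des alone had 9980 to 11722 in MC4R-/- and 9957 to 12588 in WT, so the sum by itself was no measure of mural cells. The part of mural cells in the values of Angpt1 was not tested.

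Angpt2, the angiopoietin of endothelium that can oppose Angpt1 at Tek, had 34.4 ± 5.95 normalized counts in MC4R-/- (SD, n = 6) and 36.7 ± 6.59 in WT (SD, n = 4). The ratio of Angpt2 to Angpt1 was 0.189, 0.239 and 0.310 (lowest, median, highest) in MC4R-/-, and 0.326, 0.172, 0.179 and 0.202 in WT. WT replicate 1 had the highest ratio of all libraries, WT replicates 2 and 3 were just below every MC4R-/- library, and WT replicate 4 was inside their range. Apln, which encodes the peptide apelin, had 121 ± 9.87 normalized counts in MC4R-/- and 123 ± 18.7 in WT, a log2 fold change of -0.01 ± 0.12. The ratio of Apln to its receptor Aplnr was 0.348 to 0.555 in MC4R-/-, and 0.475, 0.540, 0.459 and 0.414 in WT, all within the MC4R-/- range.

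**Figure D3:**
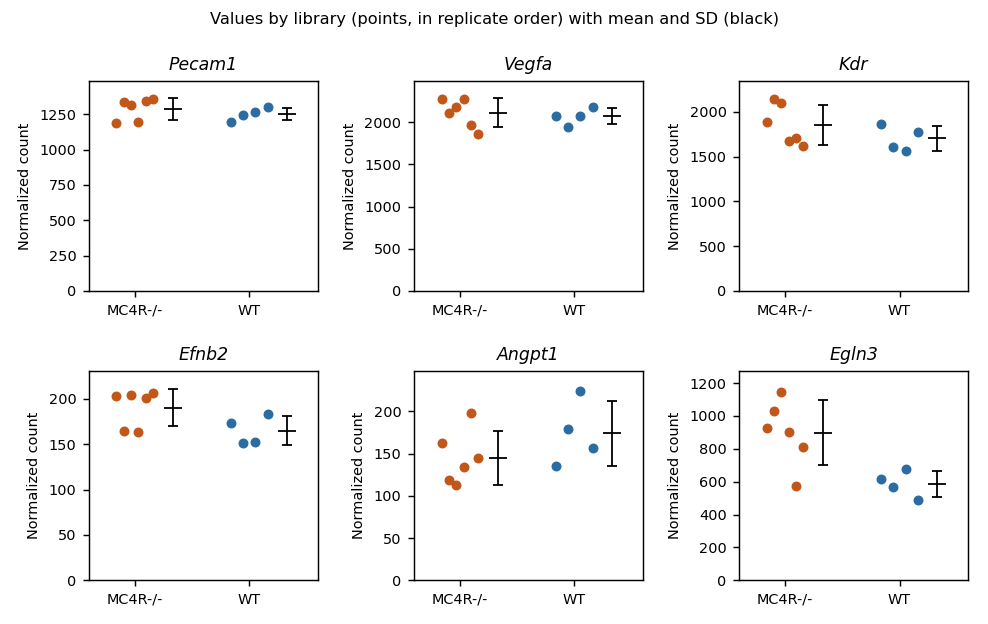
Normalized counts of Pecam1, Vegfa, Kdr, Efnb2, Angpt1 and the oxygen sensor gene Egln3, with 1 point per library (6 MC4R-/- on the left of each panel, 4 WT on the right, in replicate order) and the mean ± SD in black, on axes that start at 0. The groups overlap in each panel, for Egln3 only through MC4R-/- replicate 5 at 575.

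Of the 6 angiogenic receptors, 5 point estimates were above 0 and 1 below, with a median log2 fold change of 0.09 and 0 called. Their summed level was 5554 ± 406 normalized counts in MC4R-/- (SD, n = 6) and 5201 ± 367 in WT (SD, n = 4), a ratio of 1.07. WT replicate 2 had the lowest sum, 4710, and was the lowest of all libraries for Nrp1, Nrp2, Tek and Aplnr. Without that library the median log2 fold change of the class was 0.04, without it and MC4R-/- replicate 5 it was 0.06, and over all libraries left out in turn it ran from 0.04 to 0.12. The lymphocyte markers that were high in the same library are given above, and their part in this was not tested.

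Kdr, the main signalling receptor for Vegfa, had 1622, 1795 and 2139 normalized counts (lowest, median, highest) in MC4R-/-, and 1861, 1610, 1562 and 1773 in WT. MC4R-/- replicates 1, 2 and 3 were above every WT library for Kdr, and replicates 4, 5 and 6 were inside the WT range. This gave a log2 fold change of 0.12 ± 0.08 (SE; limma, adjusted p = 0.692). Flt1, a high-affinity receptor that can act as a decoy for Vegfa and also binds Vegfb, had 1010, 1037 and 1167 normalized counts in MC4R-/-, and 950, 977, 1051 and 1062 in WT. The 2 highest libraries for Flt1 were MC4R-/- and the 2 lowest WT, and the log2 fold change was 0.07 ± 0.07 (SE; limma, adjusted p = 0.788). The ratio of Flt1 to Kdr, in normalized counts, was 0.489 to 0.687 in MC4R-/-, and 0.510, 0.607, 0.673 and 0.599 in WT, all within the MC4R-/- range.

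The co-receptor gene Nrp1, which joins Kdr in binding Vegfa, was the most abundant receptor per length. It had 1236, 1465 and 1657 normalized counts (lowest, median, highest) in MC4R-/-, and 1503, 1211, 1297 and 1439 in WT. WT replicate 2 was the lowest and MC4R-/- replicate 6 the next, and the log2 fold change was 0.10 ± 0.08 (SE; limma, adjusted p = 0.743). The row of Nrp1 also carries the accession of Mir1903, a microRNA within it. Nrp2, a co-receptor of venous and lymphatic endothelium, had 385 ± 31.9 normalized counts in MC4R-/- and 389 ± 67.8 in WT, a log2 fold change that rounds to 0.00 (SE 0.10).

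Tek, the receptor of the angiopoietins, had 502 ± 37.7 normalized counts in MC4R-/- (SD, n = 6) and 473 ± 39.3 in WT (SD, n = 4), a log2 fold change of 0.08 ± 0.08 (SE). Aplnr, the apelin receptor, had 242, 292 and 323 normalized counts (lowest, median, highest) in MC4R-/-, and 267, 180.5, 269 and 344 in WT. For Aplnr, WT held both the highest library, replicate 4, and the lowest, replicate 2. Between the groups the log2 fold change was 0.15 ± 0.14 (SE; limma, adjusted p = 0.785). It was -0.02 without WT replicate 2 and 0.29 without WT replicate 4, so the sign of the Aplnr estimate rested on WT replicate 2.

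**Figure D4:**
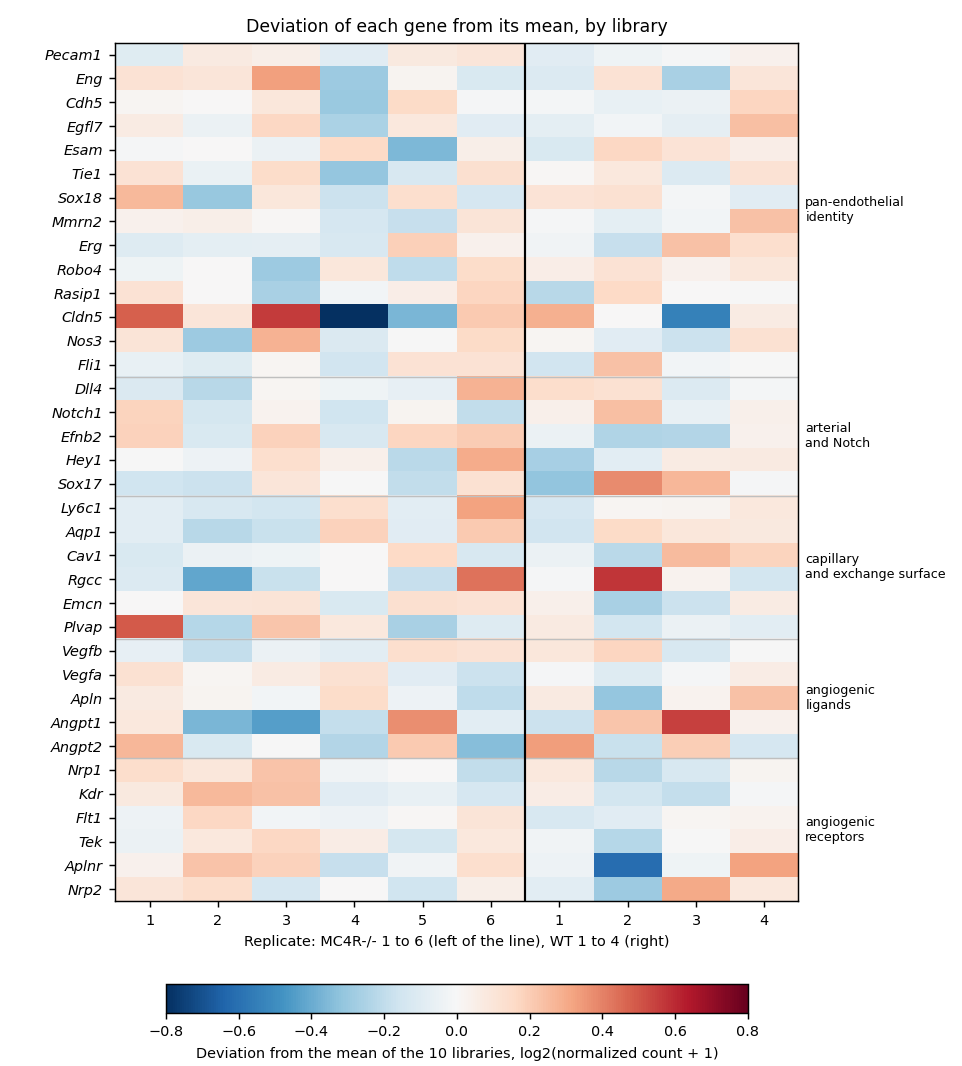
Each cell shows how far a gene lay from its own mean over the 10 libraries, on the log2(normalized count + 1) scale, red for above and blue for below, with the 6 MC4R-/- libraries left of the line and the 4 WT libraries right of it. Colours change from library to library and from gene to gene, with Cldn5, Rgcc, Angpt1 and Aplnr the most uneven, and in no row are all the libraries of 1 genotype red and all those of the other blue.

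The genes of a class did not all move with the same library. MC4R-/- replicate 6 was the highest of the 10 libraries for 8 of the 36 genes, among them Pecam1, Robo4, Efnb2, Dll4 and Ly6c1, and its median deviation from the gene means was 0.10 on the log2 scale. MC4R-/- replicate 3 was the highest for 6, among them the receptors Nrp1 and Tek. MC4R-/- replicate 4 was the lowest for Cdh5, Tie1, Eng, Egfl7 and Cldn5, all of pan-endothelial identity, and its median deviation was -0.09. In that library the median deviation was -0.14 for the pan-endothelial class and 0.04 for the capillary genes. Without MC4R-/- replicate 4 the median log2 fold change of the pan-endothelial class was 0.02, against -0.03 over all libraries. WT replicate 2 was the lowest for 9 and the highest for 6, and WT replicate 4 was the lowest for none.

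Of the genes around the VEGF pathway and the oxygen sensors that feed it, 6 of 11 point estimates were above 0 and 5 below. Their median log2 fold change was 0.02 and 0 were called. Of the 11, 2 were at an unadjusted p below 0.05 (limma), against 9.6% of all tested genes. The first was Egln3, a prolyl hydroxylase that marks hypoxia-inducible factors for removal and is itself induced by them. Egln3 had 575, 915 and 1148 normalized counts (lowest, median, highest) in MC4R-/-, and 617, 567, 674 and 486 in WT. MC4R-/- replicate 5 lay inside the WT range and the other MC4R-/- libraries were above every WT library. The log2 fold change was 0.59 ± 0.18 (SE; limma, adjusted p = 0.288), and without MC4R-/- replicate 5, the library high in atrial transcripts, it was 0.72 (limma, adjusted p = 0.000967). With WT replicate 2 left out as well it was 0.70 (limma, adjusted p = 0.00197). On the recovered reads of all libraries, edgeR gave an adjusted p of 0.052 and DESeq2 an adjusted p of 0.069, and over the libraries left out in turn the adjusted p (limma) ran from 0.000967 to 0.452. The second was Egln1, its widely expressed relative, with 4290 ± 307 normalized counts in MC4R-/- and 3868 ± 128 in WT, a log2 fold change of 0.15 ± 0.06 (SE; limma, adjusted p = 0.434). Vegfa, a target of the same factors, is described above.

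**Figure D5:**
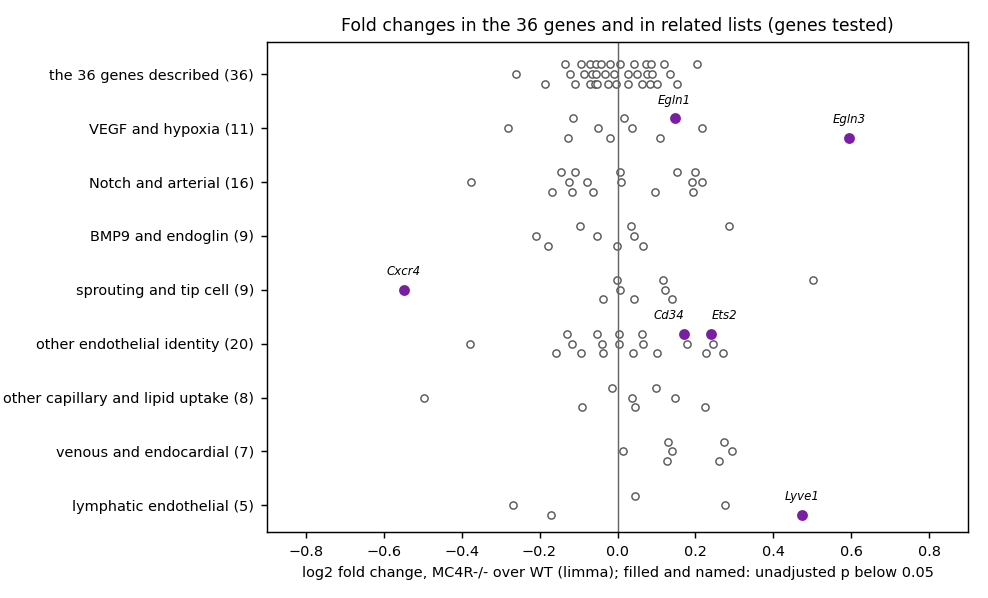
Each circle is the log2 fold change of 1 gene, MC4R-/- over WT, from limma, in the 36 genes (top) and in 8 related lists, with the number of genes tested in brackets. Filled, named circles are genes at an unadjusted p below 0.05, of which the 36 genes have none, and no circle in the plot is of a gene past the adjusted threshold.

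The other vascular lists likewise held no called gene. Of 9 tested genes of BMP signalling through endoglin, 4 point estimates were above 0 and 5 below (0 at an unadjusted p below 0.05). Of 9 sprouting and tip cell genes, 6 were above and 3 below, and 1 was at an unadjusted p below 0.05 (limma), against 9.6% of all tested genes. That gene was Cxcr4, a chemokine receptor of tip cells and leukocytes. It had 38.9 ± 10.3 normalized counts in MC4R-/- (SD, n = 6) and 56.6 ± 10.7 in WT (SD, n = 4). Its log2 fold change was -0.55 ± 0.19 (SE, limma, adjusted p = 0.259). Of 20 further genes of endothelial identity, 12 were above and 8 below, with a median log2 fold change of 0.02 and estimates from -0.38 to 0.27. Of these 20, 2 were at an unadjusted p below 0.05 (limma), against 9.6% of all tested genes. The ETS factor gene Ets2 had 858 ± 53.2 in MC4R-/- and 727 ± 72.8 in WT, a log2 fold change of 0.24 ± 0.08 (SE; limma, adjusted p = 0.202). The sialomucin gene Cd34 had one of 0.17 ± 0.08 (SE; limma, adjusted p = 0.484). Without WT replicate 2 and MC4R-/- replicate 5, Ets2 was 0.18 and Cd34 0.10 (limma, adjusted p = 0.338 and 0.675).

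All 7 venous and endocardial genes had point estimates above 0, with a median of 0.14, but their unadjusted p-values were 0.358 or more (0 called). Among them, Selp had at most 8.71 normalized counts in any library and Ackr1 at most 3.04, so the signs of these carry little weight. Vcam1, an adhesion molecule of activated endothelium, had a log2 fold change of 0.13 ± 0.14, which was -0.07 without WT replicate 2 and MC4R-/- replicate 5. Of 5 lymphatic genes, Lyve1, a hyaluronan receptor of lymphatic endothelium that some cardiac macrophages also carry, had 230 ± 35.4 normalized counts in MC4R-/- and 167 ± 35.6 in WT, a log2 fold change of 0.47 ± 0.14 (SE; limma, adjusted p = 0.172). Beside it, Prox1, Pdpn, Reln and Mmrn1 were not at an unadjusted p below 0.05 over all libraries (limma). Among the 5, 3 point estimates lay above 0 and 2 below, with 0 called. Those below were Mmrn1 at -0.27 ± 0.16 and Reln at -0.17 ± 0.16 (SE). Without WT replicate 2 and MC4R-/- replicate 5, Lyve1 was 0.55 and Mmrn1 -0.45 (limma, adjusted p = 0.108 and 0.242). Both were then at an unadjusted p below 0.05 (limma). Of 10 macrophage markers 9 had point estimates above 0, with 0 called. Of the same 10, 5 were at an unadjusted p below 0.05 (limma), against 9.6% of all tested genes. Their summed level was 3358 ± 234 in MC4R-/- against 2882 ± 233 in WT. The part of macrophages in Lyve1 was not tested.

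The other cell types of the wall stood beside these values as follows. Of 10 fibroblast markers, all 10 had point estimates above 0, with a median log2 fold change of 0.25, and 2 were called, against 0.459% of all tested genes. At an unadjusted p below 0.05 (limma) there were 5 of the 10, against 9.6% of all tested genes. Their summed level was 14916 to 17742 normalized counts in MC4R-/- and 13391 to 16024 in WT. The larger part of this sum was Gsn, with 7874 to 9746 in MC4R-/- and 6871 to 8786 in WT. Of 10 cardiomyocyte markers, 8 were below 0 and 0 were called, with a summed level of 455023 to 515172 in MC4R-/- and 478872 to 529031 in WT. Erythroid markers summed to 2810 to 5204 in MC4R-/- and 2995 to 5627 in WT. Adipocyte markers summed to 24.3 at most in any library. These ranges overlapped between the genotypes for each of the 4 lists, and their part in the levels of the 36 genes was not tested.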

How the data were processed

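Messenger RNA was measured in 6 MC4R-/- and 4 WT libraries. The submitters' processing notes list mouse build mm10 and Cuffdiff 2.2.1.3, Cuffnorm 2.2.1.1, Cufflinks 2.2.1, TopHat2 2.1.0, Bowtie2 and bcl2fastq. They state no role for a tool, no annotation and no strand setting. In the deposited table each signal value is a gene's read count over a size factor of the library, as the values show: 99.99 to 100% of values above 0 were whole multiples of 1 read within 0.1. All 10 sample columns were used (0 could not be mapped). Dividing by the value of 1 read gave the reads per library.

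Rows were matched to symbols through RefSeq tables of GRCm38.p6, and 23984 of 24160 rows matched. MC4R-/- was set against WT by limma 3.58.1 (R 4.3.3, trend and robust) on log2(normalized count + 1), for genes with a mean of at least 1, over all 10 libraries with no covariate, two-sided, with Benjamini-Hochberg adjustment and a threshold of 0.05. The fold change on this scale understates that of low genes. The procedure was tested on simulated data. Alternatives were other pseudocounts (0.5 and 5), filters (a mean of 10, or none) and scalings, no trend or robust step, a replicate block, library weights, edgeR 4.0.16 and DESeq2 1.42.0 on recovered reads, and libraries left out. edgeR called 50 genes in all and DESeq2 122. Levels per kb used the mean length of the GENCODE transcripts linked to the RefSeq mRNA entries of a row. Exon overlaps between genes were read from the basic GENCODE annotation.

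The genes, their classes and the other lists were chosen with earlier results of these data known. Each WT value, with the lowest, median and highest of MC4R-/-, is given for the 10 of the 36 genes with the smallest unadjusted p. The same is given for the most abundant gene per length of each class. Up to 4 genes of each other list are named by the unadjusted p. Other genes are named only to say what a list holds or to show the levels behind a sum or a count. Of 21 pairs of libraries within a group, none agreed within sampling noise (chi-square per gene 2.99 to 9.28, where noise gives 1), so none was taken as a repeat deposit of another and each was entered as its own sample. This does not show that they come from separate animals. Intervals and errors cover the spread between these libraries.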

Additional observations from a re-analysis of the deposited data

Results flagged for a closer look

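One of the 36 genes had a library far from the others of its group. Egfl7 in WT replicate 4 had 473 normalized counts, where the other WT libraries had 379, 394 and 381, so that the gap was 0.845 of the range of the group. Among 72 groups of values tested in this way for the 36 genes this was the only one, and chance alone marks about 1 in 20 groups. Exons of Egfl7 overlap those of Gm20532 on the same strand.

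Of the summed marker lists, 3 also had a library that stood apart. Lymphocyte markers summed to 726 normalized counts in WT replicate 2, atrial markers to 3254 in MC4R-/- replicate 5, and adipocyte markers to 24.3 in MC4R-/- replicate 5. The median of each class of the 36 genes without WT replicate 2 and MC4R-/- replicate 5 stands beside its value over all libraries.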

How the results depend on the processing

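None of the 36 genes was called under any of the 22 alternatives (792 values, lowest adjusted p 0.253), and at most 2 of them were at an unadjusted p below 0.05. Without WT replicate 2 and MC4R-/- replicate 5 those 2 were Cav1 and Angpt1 (limma). The median log2 fold change of the 36 stayed between -0.03 and 0.03. The count over all genes moved from 67 to 0 without the trend and robust step of limma (1290 at an unadjusted p below 0.05), 118 with library weights, 122 with DESeq2, 168 without WT replicate 2 and MC4R-/- replicate 5, and 26 to 117 with 1 library left out; the cause was not tested. It was 26 without WT replicate 4, 29 without MC4R-/- replicate 2, 31 without WT replicate 3, 37 without MC4R-/- replicate 1, 44 without MC4R-/- replicate 3 and 117 without WT replicate 2. No pairing by replicate number was seen, which cannot show that there is none. Correlations of same-numbered libraries were -0.060 to -0.0035, within the -0.101 to 0.142 of other pairs. The replicate block called 52 genes, 0 of the 36, and Egln3 (0.78, limma adjusted p = 0.000365). Depth limits the low genes most, since Angpt2 and Plvap had the fewest reads.

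Signs turned only for estimates of at most 0.15 in size. With library weights Fli1 was 0.0078, Ly6c1 -0.0013 and Vcam1 -0.017. With the replicate block Rasip1 was -0.023, Ly6c1 -0.052, Apln 0.050 and Nrp2 0.024. With quantile normalization Apln was 0.0049. Without WT replicate 2 and MC4R-/- replicate 5, Esam was 0.018, Fli1 0.024, Aplnr -0.0012 and Vcam1 -0.072. With 1 library left out, the estimate ran from -0.051 to 0.040 for Cdh5, -0.088 to 0.016 for Tie1, -0.011 to 0.126 for Eng, -0.068 to 0.043 for Egfl7, -0.090 to 0.240 for Cldn5, -0.00062 to 0.113 for Nos3, -0.140 to 0.00031 for Erg, -0.081 to 0.050 for Fli1, -0.108 to 0.0050 for Sox18, -0.090 to 0.013 for Mmrn2, -0.041 to 0.086 for Rasip1, -0.058 to 0.036 for Ly6c1, -0.156 to 0.00033 for Cav1, -0.0038 to 0.145 for Plvap, -0.0028 to 0.062 for Vegfa, -0.170 to 0.00094 for Angpt2, -0.114 to 0.068 for Apln, -0.102 to 0.095 for Nrp2, -0.019 to 0.290 for Aplnr and -0.017 to 0.235 for Vcam1.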
